A study of Mus musculus with 8 samples.

Results

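The collagen and laminin genes were followed in mouse blood-forming cells whose Pcgf1 transcript had been lowered. Every gene whose symbol is a collagen chain (Col, a type number, a and a chain number) or a laminin chain (Lama, Lamb or Lamc and a number) was taken. These were 49 of the 17016 genes with a symbol on the array, 39 collagens and 10 laminins. Another 6 genes that match the same pattern (Col12a1, Col20a1, Col22a1, Col6a3, Col6a5 and Lama3) had no matched probe and were not analysed here.

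Messenger RNA of 8 cultures was measured on one-colour Agilent arrays. In 4 cultures haematopoietic stem and progenitor cells carried a retroviral shRNA against Pcgf1, and in the other 4 a control shRNA in the same kind of virus. All cells came from lineage-depleted bone marrow of Runx1 Δ/Δ mice of mixed C57Bl/6 and 129SvJ strain, so the control cultures carry that genotype too, and each of 4 mice gave both cultures. The medium held 4 cytokines, IL-3 at 10 ng/ml, SCF at 50 ng/ml, and both IL-11 and Flt3 ligand at 100 ng/ml. The cells were transduced after 2 days in it, and puromycin at 5 µg/ml, started 24 h later and kept for 36 h, selected them. The age of the mice and how the Runx1 Δ allele was made are not given in the sources used here.

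Collagens are secreted proteins of 3 alpha chains wound into a triple helix. Fibrillar collagens form the cables of connective tissue, type IV collagen forms the sheet-like network of basement membranes, and laminins, trimers of an alpha, a beta and a gamma chain, form the other network of the same sheet. In bone marrow both are made mainly by stromal cells, bone cells and vessels, while blood cells bind them through receptors and make some chains themselves. Pcgf1 is a subunit of the Polycomb complex PRC1.1, which is brought to unmethylated CpG-rich promoters by its subunit Kdm2b and ubiquitinates histone H2A there.

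Of the 43379 non-control spots on each array, 54.8% to 62.0% stood well above background and 0 were saturated. Levels are log2 processed signals relative to the array's 75th percentile, which was set to 0. Levels of different genes come from different probes and were not compared with each other. A summed level is the log2 of the added signals of a list, so the brightest probes of the list weigh most in it. Differences are Pcgf1 shRNA minus control shRNA. Genes were compared with limma over 17301 genes with a Benjamini-Hochberg adjusted p threshold of 0.05, and the same fit with mouse as a block is given beside it because both cultures of a mouse share an animal. Pcgf1 itself read −1.63, −1.64, −1.74 and −1.35 with the Pcgf1 shRNA in mice 1 to 4, against −0.24, −0.23, −0.45 and −0.01 with the control shRNA (log2 difference −1.36, SE 0.12, adjusted p 0.0197; 0.0139 with the block). The blood cell genes Ptprc, Kit, Spi1 and Mpo were well above background on all 8 arrays. Both arrays of mouse 4 stood apart from the other 6 on the first principal component (38.3 with the Pcgf1 shRNA and 44.8 with the control shRNA, against −30.1 to 2.95). Because the RNA is from whole cultures, fewer cells of a type and less RNA per cell cannot be told apart.

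Most collagen and laminin genes were dim in these cultures. Of the 49 genes, 21 were well above background on 0 of 8 arrays, and 22 (18 collagens and 4 laminins) passed the filter on dim probes, which asks for a signal above background throughout at least 1 of the groups, on 4 of 4 arrays. Of these 22, 21 were above background on all 8 arrays, and Lamc3 passed through its 4 arrays with the Pcgf1 shRNA, against 3 of 4 with the control shRNA. Some of these genes had a second probe that did not detect them. It was at 0 of 8 arrays for Col4a6, Col8a1, Col16a1, Col23a1 and Col25a1. For Col2a1, Col5a3 and Lamc3 it was at 0 arrays with the Pcgf1 shRNA and at 1, 2 and 1 with the control shRNA. Among the fibrillar chains, Col3a1, a chain of skin and vessel fibrils, Col5a2, a minor fibril chain, and Col24a1 were at 0 arrays, and Col1a1, the main chain of bone and tendon collagen, was above background on 2 of 8 arrays. Col6a1, which type VI collagen needs for assembly, was at 0 arrays. So were Col4a3 and Col4a5, the partners of Col4a4 in the kidney basement membrane, and Col8a2 and Col10a1 of the short-chain networks.

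Other chains at 0 arrays were Col6a6, Col14a1, Col15a1, Col17a1, Col19a1, Col26a1, Col28a1 and Col9a1 among the collagens. Among the laminins they included Lama1, Lama2, Lama4 and Lamb1. A further 4 genes were above background on 1 to 4 arrays (Col27a1 on 1, Col11a1 and Col1a1 on 2, Col9a3 on 4), and 2 that did not pass were above it on 5 arrays each (Col13a1 and Lamb3). A probe below background gives only an upper bound on its gene, so these 27 genes were not tested.

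**Figure D1:**
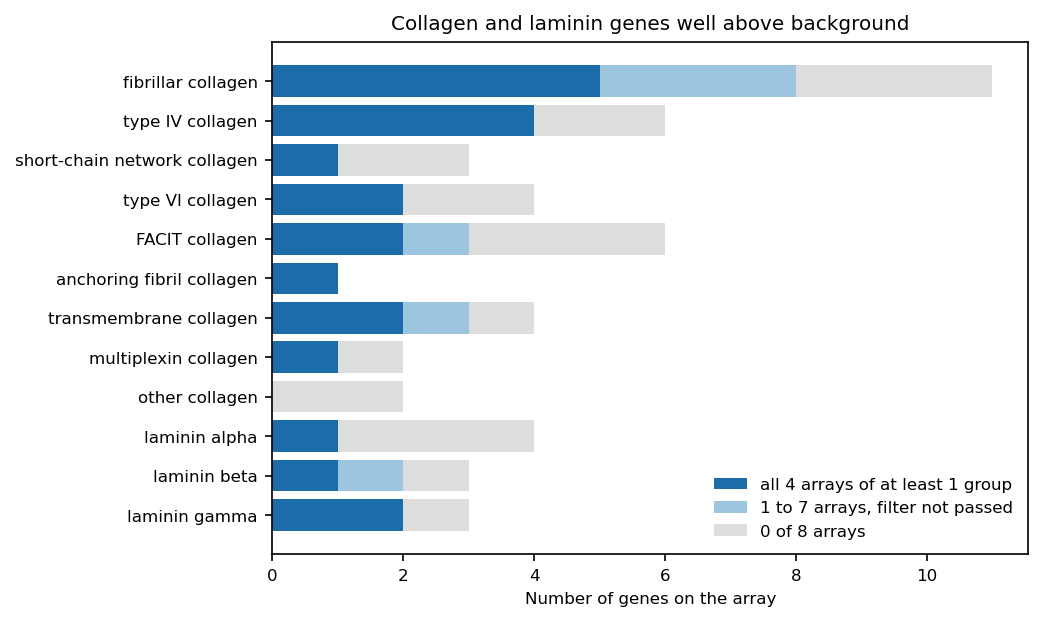
Number of collagen and laminin genes in each class (x axis, genes on the array) by detection. Dark bars are genes that passed (well above background on 4 of 4 arrays in 1 or both groups), light blue bars those above it on 1 to 7 arrays without passing, and grey bars those at 0 of 8 arrays; 5 of 11 fibrillar and 4 of 6 type IV chains passed.

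The type IV collagen pair was higher with the Pcgf1 shRNA. Col4a1 and Col4a2 encode the alpha 1 and alpha 2 chains, which assemble with each other as the common type IV trimer of nearly all basement membranes. Their genes lie head to head on chromosome 8 and are transcribed away from a shared start region. The RefSeq promoter windows (GRCm38.p6, 250 bases before to 50 after each annotated start) are shown because they overlap. They cover chr8:11312777-11313076 on the minus strand for Col4a1 and chr8:11312555-11312854 on the plus strand for Col4a2, the annotated starts lie 21 bases apart, and the 78 bases in capitals are the stretch that both windows hold, read from opposite strands.
Col4a1: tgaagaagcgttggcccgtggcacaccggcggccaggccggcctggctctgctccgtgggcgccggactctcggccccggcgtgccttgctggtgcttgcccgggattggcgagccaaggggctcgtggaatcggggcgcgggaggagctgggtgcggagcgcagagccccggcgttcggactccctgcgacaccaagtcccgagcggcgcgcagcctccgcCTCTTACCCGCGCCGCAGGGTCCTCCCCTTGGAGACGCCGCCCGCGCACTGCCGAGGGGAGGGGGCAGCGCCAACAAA
Col4a2: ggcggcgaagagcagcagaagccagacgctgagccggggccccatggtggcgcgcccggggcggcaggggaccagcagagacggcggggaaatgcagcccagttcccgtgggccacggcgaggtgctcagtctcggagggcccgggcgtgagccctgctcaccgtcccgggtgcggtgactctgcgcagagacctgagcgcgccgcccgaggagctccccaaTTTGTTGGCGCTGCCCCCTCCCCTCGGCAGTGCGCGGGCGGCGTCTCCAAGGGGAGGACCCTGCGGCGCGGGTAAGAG

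Both genes were higher with the Pcgf1 shRNA in 4 of 4 mice and passed with mouse as a block, but not without it. Col4a1 read −0.53, −1.46, −0.99 and −0.97 with the Pcgf1 shRNA in mice 1 to 4, against −1.55, −2.42, −1.96 and −1.63 with the control shRNA. The groups did not overlap: the lowest value with the Pcgf1 shRNA, that of mouse 2, lay above the highest control value, that of mouse 1. The mean was −0.99 ± 0.38 with the Pcgf1 shRNA and −1.89 ± 0.39 with the control shRNA (SD, n = 4 each), a 1.87-fold higher level with the Pcgf1 shRNA. The log2 difference was 0.90 (SE 0.24, limma adjusted p 0.166; with the block SE 0.09, adjusted p 0.0149, 95% interval 0.69 to 1.12). By mouse it was 1.03, 0.96, 0.97 and 0.66, the smallest in mouse 4, and it was 0.99 on the first slide, which held mice 1 and 2, and 0.82 on the second.

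Col4a2 read 0.67, −0.12, 0.31 and 0.06 with the Pcgf1 shRNA in mice 1 to 4, against 0.02, −0.46, −0.19 and −0.33 with the control shRNA. Here the groups overlapped, since mouse 2 with the Pcgf1 shRNA lay below mouse 1 with the control shRNA, while within each mouse the Pcgf1 shRNA culture was the higher one. The log2 difference was 0.47 (1.39-fold, SE 0.18, limma adjusted p 0.350; with the block SE 0.08, adjusted p 0.0353, 95% interval 0.27 to 0.67). It was 0.50 and 0.45 on the 2 slides.

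A second probe was well above background for each gene and gave the same direction in 4 of 4 mice. For Col4a1 it differed by 1.33 (1.46, 1.33, 1.59 and 0.95 in mice 1 to 4), and for Col4a2 by 0.51 (0.53, 0.42, 0.47 and 0.61). With the block and 1 mouse left out, Col4a1 passed without mouse 1, 3 or 4 (adjusted p 0.0467, 0.0314 and 0.0424) and not without mouse 2 (0.0920), where 0 genes of the whole array passed with the block in limma (2435 at an unadjusted p under 0.05). Col4a2 passed in none of these 4 fits (adjusted p 0.0727 to 0.138).

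**Figure D2:**
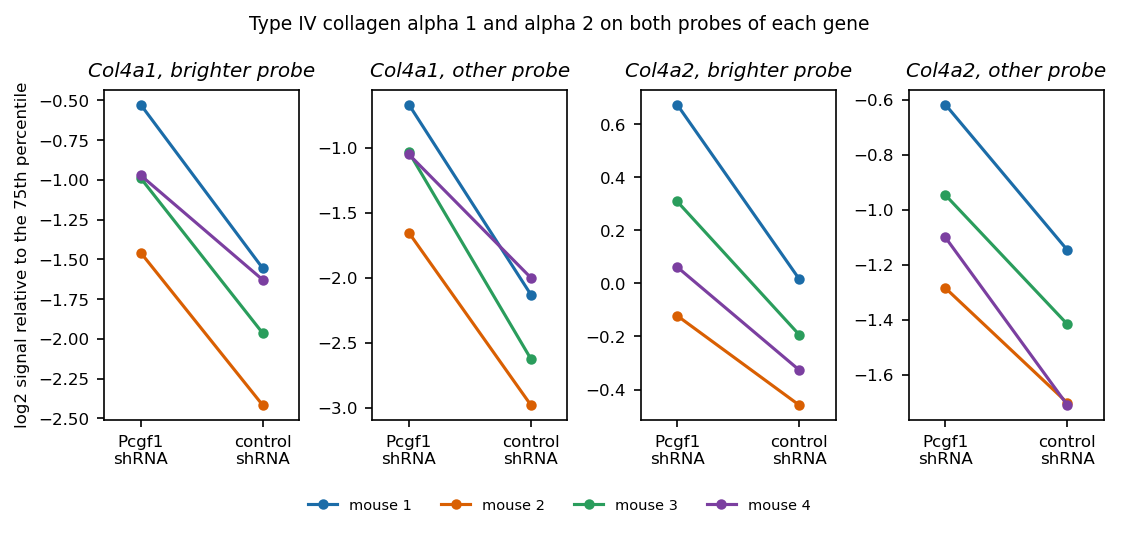
Level of Col4a1 and Col4a2 on the brighter and the other probe of each gene (y axes, log2 signal with the 75th percentile of the array at 0; axes differ), Pcgf1 shRNA left and control shRNA right, with lines joining the cultures of a mouse. All 16 lines slope down towards the control shRNA.

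Of the other type IV chains, Col4a6 was lower and Col4a4 overlapped. Col4a6, a chain of smooth muscle and epithelial basement membranes, read −1.72, −1.74, −1.66 and −1.87 with the Pcgf1 shRNA, against −1.52, −1.43, −1.05 and −1.51 with the control shRNA. The groups did not overlap, with every Pcgf1 shRNA value below every control value. The log2 difference of −0.37 (SE 0.12) did not pass in either limma fit (adjusted p 0.260, or 0.0725 with the block). A second Col4a6 probe was well above background on 0 arrays of either group. Col4a4 read 0.41, 0.67, 0.23 and −0.58 with the Pcgf1 shRNA, against 0.40, 0.84, 0.08 and −0.14 with the control shRNA, higher in mice 1 and 3 and lower in mice 2 and 4 (log2 difference −0.11, 95% interval with the block −0.38 to 0.16).

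Over all 22 measured genes, 0 passed in limma without a block (0.763% of all genes tested did, and 5 of the 22 had an unadjusted p under 0.05, against 12.2% of all genes). With mouse as a block 3 passed, against a background of 5.32% of all genes. In that limma fit 11 of the 22 had an unadjusted p under 0.05, against 4069 of the 17301 genes. The 3 that passed were Col4a1 and Col4a2, higher (2.91% of all genes), and Col23a1, lower (2.42%). Higher in 4 of 4 mice were 5 genes (background 15.5%), namely Col4a1, Col4a2, Col5a3, Col11a2 and Lama5. Lower in 4 of 4 mice were 8 (background 16.2%), namely Col1a2, Col2a1, Col5a1, Col4a6, Col8a1, Col6a4, Col7a1 and Col23a1. The groups did not overlap in 1 gene that was higher (background 4.24%) and in 1 that was lower (background 2.9%), Col4a1 and Col4a6. The median log2 difference was −0.25 over the 18 collagens and 0.15 over the 4 laminins, against 0.00 over all genes tested, and these medians carry no test.

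Many sizes changed with the processing. The normexp setting adds an offset of 50 to every signal, which by itself makes the log2 differences of dim probes smaller. With normexp background correction and quantile normalization in its place, 19 of the 22 differences were smaller, and 12 shrank by more than 1.5 times or changed sign. Col4a1 and Col4a2 then differed by 0.72 and 0.42, Col1a2 by −0.19, Col2a1 by −0.13, Col5a3 by 0.19 and Col11a2 by 0.09. Col6a2 differed by −0.06, Col6a4 by −0.13, Col9a2 by −0.01 and Col25a1 by −0.05.

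**Figure D3:**
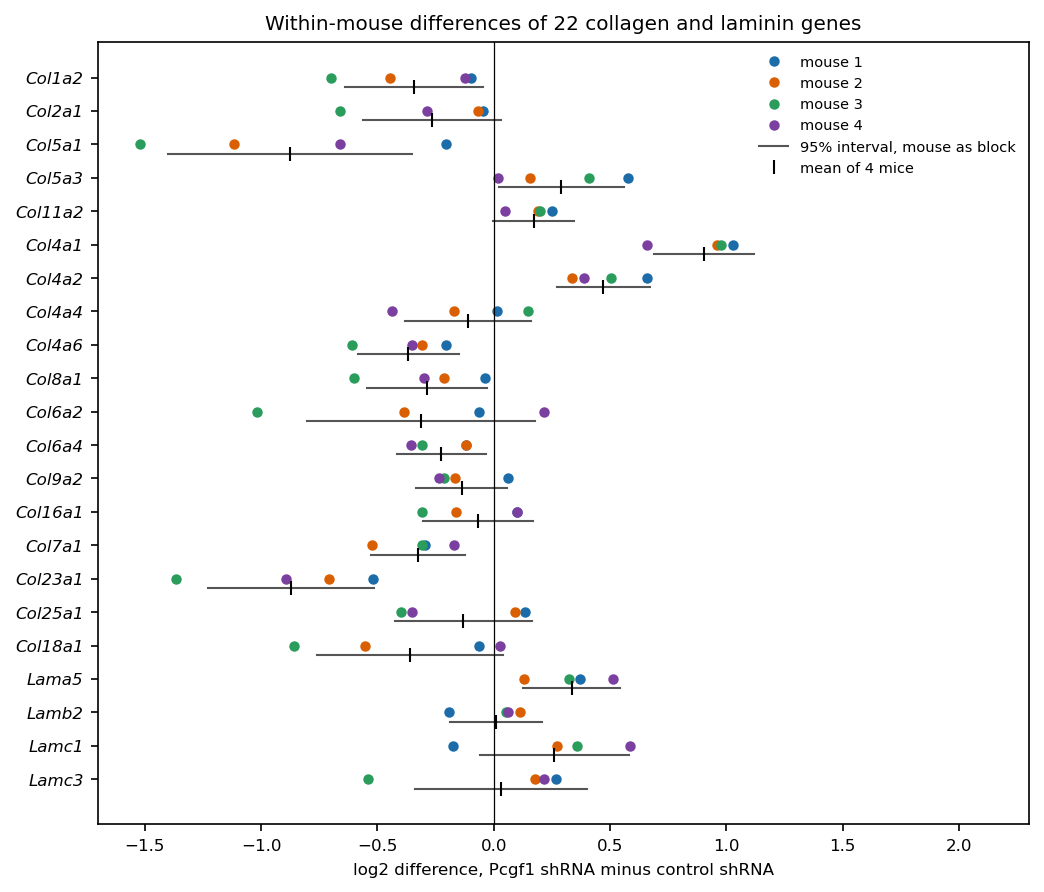
Log2 difference, Pcgf1 shRNA minus control shRNA (x axis), of the 22 measured genes (y axis). Coloured points are mice 1 to 4, black ticks the mean of 4 mice and lines the 95% interval with mouse as a block. All 4 mice lie above 0 in 5 genes (15.5% of all genes), Col4a1 at 0.90 among them. They lie below 0 in 8 genes (16.2%), Col23a1 at −0.87 among them.

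Col23a1, which encodes a transmembrane collagen of the cell surface, was the gene that passed in the other direction. Its promoter window (RefSeq, GRCm38.p6, chr11:51289670-51289969, plus strand) is shown with each CpG in capitals, for comparison with the CpG counts of the type IV pair given further on.
Col23a1: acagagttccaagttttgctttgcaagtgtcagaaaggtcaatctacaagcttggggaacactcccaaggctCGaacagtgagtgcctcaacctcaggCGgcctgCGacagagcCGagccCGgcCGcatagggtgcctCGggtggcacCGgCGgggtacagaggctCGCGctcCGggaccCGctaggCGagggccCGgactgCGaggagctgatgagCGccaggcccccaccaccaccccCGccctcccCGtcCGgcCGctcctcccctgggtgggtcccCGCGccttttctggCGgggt

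The level of Col23a1 was −3.95, −4.84, −5.43 and −5.70 with the Pcgf1 shRNA in mice 1 to 4, against −3.43, −4.13, −4.06 and −4.81 with the control shRNA. The cultures differed more between mice than between shRNAs: mouse 1 was highest and mouse 4 lowest in both groups, and the groups overlapped. Within each mouse the Pcgf1 shRNA culture was lower, with differences of −0.52, −0.71, −1.37 and −0.89. The log2 difference was −0.87 (0.547 of the control level; SE 0.41, limma adjusted p 0.455; with the block SE 0.14, adjusted p 0.0334, 95% interval −1.23 to −0.52). A second probe of the gene was well above background on 0 arrays of either group. The measured probe was dim, with processed intensities of 16.4 to 35.2 with the Pcgf1 shRNA and 25.2 to 58.4 with the control shRNA. With normexp background correction, whose offset of 50 lies in the range of these intensities, the difference was −0.21. An offset of that size makes such a difference smaller by itself. With the block Col23a1 passed without mouse 3 (adjusted p 0.0446) and not without mouse 1, 2 or 4 (0.0586, 0.123 and 0.0896). The other transmembrane chain measured, Col25a1, an amyloid-associated collagen first known from brain, was higher in mice 1 and 2 and lower in mice 3 and 4 (log2 difference −0.13, adjusted p 0.778).

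Of the fibrillar chains 5 of 11 were measured and 0 passed in either fit. Col5a1, a chain that starts and narrows type I fibrils, read 1.42, 1.25, −0.23 and 2.08 with the Pcgf1 shRNA in mice 1 to 4, against 1.63, 2.36, 1.29 and 2.74 with the control shRNA. It was lower in 4 of 4 mice, with differences of −0.20, −1.12, −1.52 and −0.66, and the groups overlapped. The log2 difference of −0.88 (SE 0.51) had an adjusted p of 0.548, or 0.0749 with the block in limma, and a second, dimmer probe gave 0.12, so the probes disagreed in direction.

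Col1a2, the second chain of type I collagen, read −1.91, −2.06, −2.27 and −2.43 with the Pcgf1 shRNA, against −1.81, −1.62, −1.57 and −2.30 with the control shRNA (log2 difference −0.34, adjusted p 0.517). Its partner Col1a1 was above background on 2 of 8 arrays, so the pair could not be compared. Col2a1, the cartilage collagen, read −2.75, −2.92, −3.18 and −3.28 with the Pcgf1 shRNA, against −2.71, −2.85, −2.52 and −2.99 with the control shRNA (log2 difference −0.27, adjusted p 0.533). Both genes overlapped between the groups.

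Col5a3 and Col11a2 were higher in 4 of 4 mice without passing. Col5a3, a type V chain, read −2.12, −2.37, −1.97 and −3.01 with the Pcgf1 shRNA, against −2.70, −2.52, −2.39 and −3.03 with the control shRNA (log2 difference 0.29, adjusted p 0.674; 0.187 with the block). Col11a2, a cartilage fibril chain, read 0.50, 0.42, 0.40 and −0.34 with the Pcgf1 shRNA, against 0.25, 0.23, 0.21 and −0.39 with the control shRNA (log2 difference 0.17, adjusted p 0.811; 0.214 with the block). In Col11a2 mouse 4 lay far below the other mice in both groups, and a second probe of the gene gave −0.16.

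Col18a1, the multiplexin collagen of basement membranes whose end fragment is endostatin, read 2.90, 2.81, 2.10 and 3.78 with the Pcgf1 shRNA in mice 1 to 4, against 2.96, 3.36, 2.96 and 3.75 with the control shRNA. Mouse 4 was highest in both groups, and the culture of mouse 3 with the Pcgf1 shRNA was the lowest of the 8. The log2 difference was −0.36 (SE 0.34, limma adjusted p 0.725; 95% interval with the block −0.76 to 0.04), lower in 3 of 4 mice, and a second probe gave −0.29. The summed level of 7 megakaryocyte genes showed the same highest mouse and the same lowest culture: 6.18, 5.72, 5.20 and 6.99 with the Pcgf1 shRNA, against 5.94, 5.89, 5.81 and 6.82 with the control shRNA. Most of that sum was Pf4, which alone read 5.52, 5.13, 4.51 and 6.29, against 5.31, 5.17, 5.12 and 6.07. The lowest Col5a1 value was in that same culture of mouse 3. Of those 7 megakaryocyte genes 0 passed in either limma fit, and their part in the Col18a1 and Col5a1 values was not tested.

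Col16a1, which sits on the surface of collagen fibrils, varied by mouse and hardly by shRNA. It read −3.48, −4.35, −3.78 and −2.71 with the Pcgf1 shRNA, against −3.58, −4.19, −3.48 and −2.81 with the control shRNA. In both groups mouse 4 was highest and mouse 2 lowest, and the log2 difference of −0.07 (adjusted p 0.967) changed sign with quantile normalization (0.03) and with normexp background correction (0.05). The other measured chain of this class, Col9a2, which coats cartilage fibrils, read −4.05, −4.08, −3.89 and −3.98 with the Pcgf1 shRNA, against −4.11, −3.91, −3.68 and −3.74 with the control shRNA (log2 difference −0.14, adjusted p 0.668).

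Among the remaining collagens, each log2 difference was negative and 0 passed in either fit. Col7a1, which forms the anchoring fibrils of skin, lay between −1.26 and −0.94 with the Pcgf1 shRNA, against −1.09 and −0.63 with the control shRNA (log2 difference −0.32, SE 0.13, limma adjusted p 0.365; 0.0818 with the block). It was lower in 4 of 4 mice, and the control culture of mouse 4 lay within the range of the Pcgf1 shRNA cultures. Col8a1, of the short-chain network of vessel walls and cornea, read −4.63, −4.89, −5.15 and −4.87 with the Pcgf1 shRNA, against −4.59, −4.68, −4.55 and −4.57 with the control shRNA (log2 difference −0.29, adjusted p 0.360). With normexp this difference was −0.03.

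The type VI chains form beaded filaments around cells. Col6a2 read −3.95, −4.14, −4.02 and −4.17 with the Pcgf1 shRNA, against −3.89, −3.76, −3.00 and −4.38 with the control shRNA (log2 difference −0.31, adjusted p 0.674), and it was lower in mice 1 to 3 and higher in mouse 4. Without mouse 3 this difference was −0.08. Col6a4 read −3.49, −3.33, −3.49 and −3.74 with the Pcgf1 shRNA, against −3.37, −3.21, −3.18 and −3.38 with the control shRNA (log2 difference −0.23, adjusted p 0.451), lower in 4 of 4 mice, and a second probe gave −0.26.

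Laminins were measured for 1 alpha, 1 beta and 2 gamma chains, and 0 of the 4 passed in either fit. Lama5, the widespread adult alpha chain, read −0.13, −0.51, −0.35 and 0.20 with the Pcgf1 shRNA in mice 1 to 4, against −0.50, −0.65, −0.67 and −0.32 with the control shRNA. It was higher in 4 of 4 mice, and the groups overlapped. The log2 difference was 0.33 (SE 0.16, limma adjusted p 0.460; with the block SE 0.08, adjusted p 0.0823, 95% interval 0.13 to 0.54).

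Lamc1, the gamma chain of most laminins, read 2.03, 2.36, 2.34 and 2.06 with the Pcgf1 shRNA in mice 1 to 4, against 2.21, 2.08, 1.98 and 1.47 with the control shRNA. It was higher in mice 2, 3 and 4 and lower in mouse 1 (log2 difference 0.26, SE 0.17, adjusted p 0.595; 0.295 with the block). Lamb2, a beta chain of nerve and kidney basement membranes, read −4.98, −4.79, −4.94 and −4.74 with the Pcgf1 shRNA, against −4.79, −4.90, −4.99 and −4.81 with the control shRNA. Its log2 difference was 0.01 with a 95% interval of −0.19 to 0.21 with the block, and its sign turned when mouse 2, 3 or 4 was left out. Lamc3, a gamma chain of testis, retina and brain surface, read −4.64, −4.94, −4.85 and −4.59 with the Pcgf1 shRNA, against −4.91, −5.12, −4.31 and −4.81 with the control shRNA. Its log2 difference was 0.03 (95% interval with the block −0.34 to 0.40), and it turned negative with normexp and when mouse 1, 2 or 4 was left out. Lamc3 passed the filter only through the Pcgf1 shRNA arrays (4 of 4, against 3 of 4 with the control shRNA), so its direction is not read as a result. Lamb1, the usual beta partner of these chains, was at 0 of 8 arrays.

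**Figure D4:**
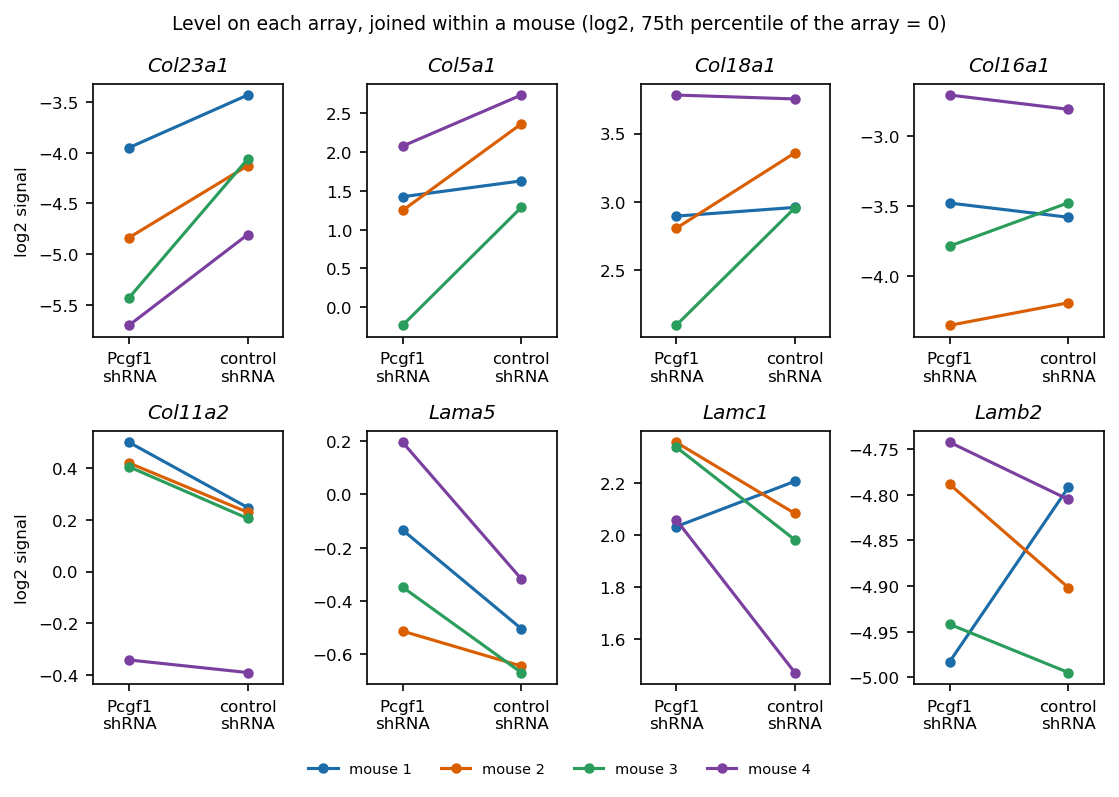
Levels of 8 collagen and laminin genes (y axes, log2 signal with the 75th percentile of the array at 0; axes differ), Pcgf1 shRNA left and control shRNA right, with lines joining the cultures of a mouse. Col23a1 and Col5a1 are higher with the control shRNA in all 4 mice, Lama5 is lower with it, and in Col16a1 and Col18a1 mouse 4 is highest in both groups.

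The spread between mice was about as common here as over the whole array. The range of the 4 mouse means exceeded the size of the mean shRNA difference in 19 of 22 genes, against 86.3% of all genes, and Col4a1, Col4a6 and Col8a1 were the exceptions. Mouse 4 was lowest in both groups in 9 of 22 genes (27.3% of all genes) and highest in both in 4 of 22 (17.4%). The 4 were Col5a1, Col16a1, Col18a1 and Lama5.

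The genes that make, bind and break down collagen and laminin were taken as a list of 64, of which 59 were on the array and 35 were measured. Among the measured ones, Bcam, Mmp13 and Ctsk passed the filter only through the control shRNA arrays. Of the 35, 2 rose and 0 fell without a block (background 0.595% and 0.168% of all genes). With mouse as a block 4 rose and 2 fell (2.91% and 2.42%). The list median was 0.03. Both genes that passed without a block act on procollagen. P3h3, of the prolyl 3-hydroxylase family that modifies collagen in the endoplasmic reticulum, read −0.38, −0.67, −0.51 and −1.03 with the Pcgf1 shRNA in mice 1 to 4, against −1.53, −1.82, −1.98 and −2.23 with the control shRNA. The groups did not overlap, and the level was 2.37-fold higher (log2 difference 1.24, SE 0.18, limma adjusted p 0.0287; 0.0139 with the block). Bmp1, the proteinase that cuts the C-terminal propeptide off fibrillar procollagens, read −2.05, −2.41, −2.34 and −2.40 with the Pcgf1 shRNA, against −3.07, −3.31, −2.89 and −3.04 with the control shRNA, again without overlap (1.72-fold, log2 difference 0.78, SE 0.12, limma adjusted p 0.0354; 0.0210 with the block; log2 difference 0.52 with normexp).

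The P3h3 call without a block was lost when mouse 1, 2 or 3 was left out (adjusted p 0.123, 0.352 and 0.248 in limma), and with the block when mouse 2 was left out (0.0896). Over the whole array those fits called 1, 0 and 0 genes, and 0 with the block. Pcgf1 lost its call in them too (0.113, 0.352 and 0.0904, and 0.0896 with the block), so these losses are not particular to P3h3. The Bmp1 call was lost without any 1 of the mice 1 to 4 (0.184, 0.352, 0.191 and 0.0506), and with the block without mouse 1, 2 or 4 (0.0556, 0.113 and 0.0581). Both differences stayed positive, at 1.17 to 1.27 for P3h3 and 0.70 to 0.85 for Bmp1. The calls with the block that follow were also lost without single mice: Plod2 and Nid2 without any 1 of the 4 (adjusted p 0.0523 to 0.144 and 0.0634 to 0.161), Itga1 likewise (0.0507 to 0.189), and Mmp8 without mouse 1, 2 or 3 (0.0627 to 0.134).

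Of 11 measured modifying enzymes and chaperones 2 rose with the block (background 2.91% of all genes), P3h3 and Plod2. Plod2, the lysyl hydroxylase of collagen telopeptides, read −2.89, −2.82, −2.76 and −3.08 with the Pcgf1 shRNA, against −3.24, −3.50, −3.36 and −3.61 with the control shRNA (log2 difference 0.54, limma adjusted p 0.0780; 0.0279 with the block; 0.32 with normexp). Of 3 measured basement membrane partners 1 rose with the block (background 2.91%). That was Nid2, a nidogen, which links laminin to type IV collagen: −2.99, −2.68, −2.40 and −3.30 with the Pcgf1 shRNA, against −3.36, −3.26, −2.83 and −3.76 with the control shRNA (log2 difference 0.46, limma adjusted p 0.502; 0.0288 with the block; 0.27 with normexp). Agrn, a heparan sulphate proteoglycan that binds laminin, was higher in 3 of 4 mice and did not pass (log2 difference 0.29, adjusted p 0.635).

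Of 9 measured receptors 1 fell with the block (background 2.42% of all genes). Itga1, the alpha 1 integrin subunit that prefers type IV collagen, read −4.28, −4.56, −4.08 and −4.39 with the Pcgf1 shRNA, against −3.70, −3.93, −3.46 and −4.15 with the control shRNA (log2 difference −0.52, limma adjusted p 0.255; 0.0386 with the block; −0.14 with normexp). Dag1, which encodes dystroglycan, a laminin receptor, had a log2 difference of 0.36 and did not pass (adjusted p 0.344). Adamts14, a procollagen N-proteinase, had a difference of −0.27 (−0.13 with normexp) and did not pass either (adjusted p 0.457).

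Of 9 measured matrix-degrading enzymes and inhibitors 1 fell with the block (background 2.42%) and 0 rose, with values on both sides of 0 among those that did not pass. Lower in 4 of 4 mice (16.2% of all genes) were Mmp8, Mmp14, Mmp12 and Timp1. Mmp14, Mmp12 and Timp1 had log2 differences of −1.17, −1.65 and −0.56, while Mmp19, Timp2 and Timp3 stood at 0.10, 0.03 and 0.23. Mmp13 and Ctsk passed the filter only through the control shRNA arrays, being above background on 3 of 4 arrays with the Pcgf1 shRNA and on 4 of 4 with the control shRNA. For that reason neither a size nor a direction is given for them. Mmp8, the neutrophil collagenase, read 0.37, 0.10, −0.75 and −0.14 with the Pcgf1 shRNA, against 1.50, 1.39, 0.78 and 0.32 with the control shRNA (log2 difference −1.10, limma adjusted p 0.202; 0.0313 with the block). Ctsk, the collagen-cutting cathepsin of osteoclasts, was not called in either fit. Genes of maturing myeloid cells, in lists added after values were seen, are set beside these values. The summed level of 7 neutrophil genes (Ltf, Camp, Ngp, S100a8, S100a9, Lcn2 and Fpr1) was 3.47 to 5.46 with the Pcgf1 shRNA, against 6.39 to 7.86 with the control shRNA. Of the 7, 7 were lower in 4 of 4 mice (16.2% of all genes). As lower, 2 passed without the block (0.168% of all genes) and 6 with it (2.42%). The summed level of 6 monocyte and macrophage genes was 5.11 to 5.81 with the Pcgf1 shRNA, against 5.23 to 6.21 with the control shRNA, with overlapping ranges. Of these 6, 4 were lower in 4 of 4 mice (16.2% of all genes). As lower, 0 passed without the block (0.168% of all genes) and 1 with it (2.42%). Their part in the Mmp8 value was not tested.

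**Figure D5:**
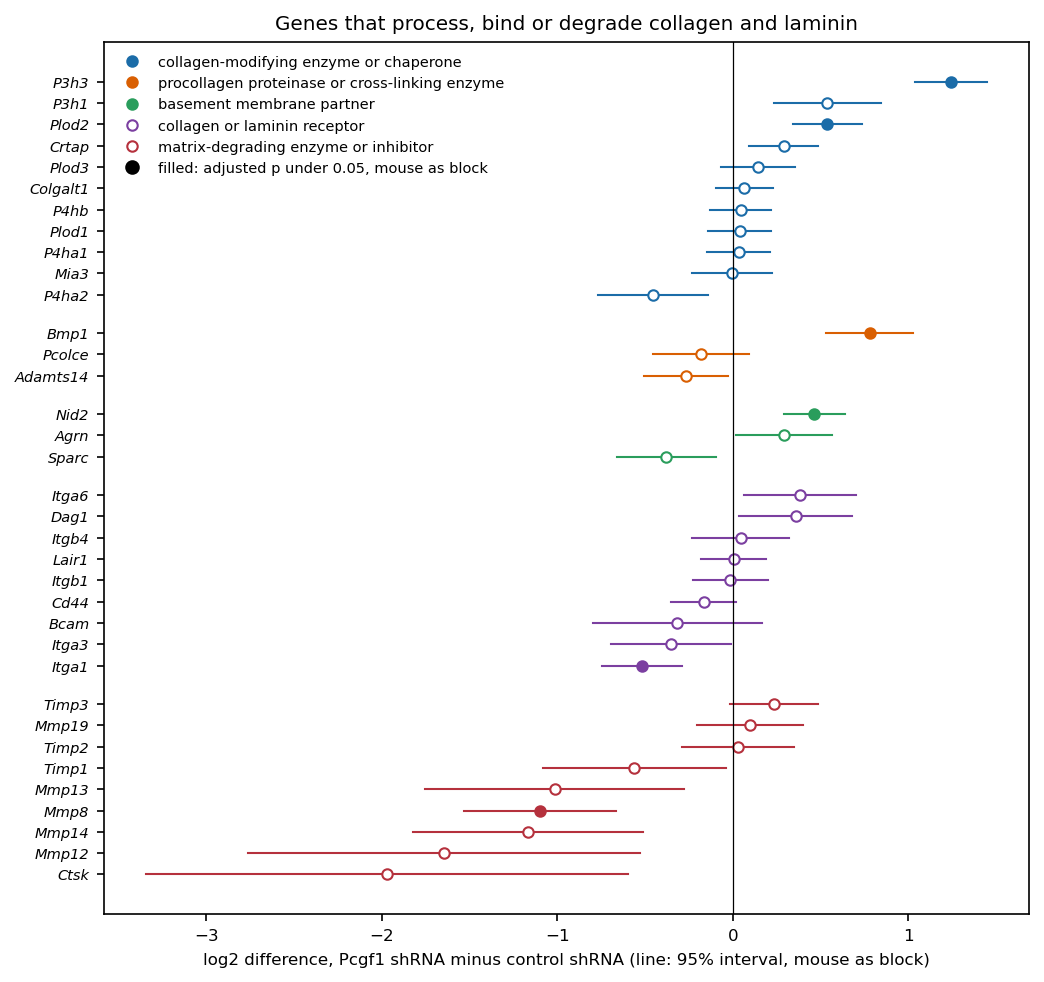
Log2 difference, Pcgf1 shRNA minus control shRNA (x axis), of the 35 measured genes that process, bind or degrade collagen and laminin (y axis), coloured by role. Lines are 95% intervals with mouse as a block and filled points have an adjusted p under 0.05 in that fit. P3h3 stands at 1.24 and Mmp8 at −1.10, and the points of Bcam, Mmp13 and Ctsk include 1 Pcgf1 shRNA array below background.

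Markers of cells that make most marrow collagen were looked at beside these values. Of 11 stromal and fibroblast genes 5 were at 0 of 8 arrays (Pdgfra, Dcn, Lepr, Postn and Fap), and the summed level of the list was 4.33 to 4.84 with the Pcgf1 shRNA, against 4.38 to 4.64 with the control shRNA. Most of that sum was Acta2, which alone read 4.03 to 4.46 and 4.10 to 4.46. With the block 2 of the 3 measured genes rose, Pdgfrb (log2 difference 0.69, limma adjusted p 0.0208) and Thy1, which early blood progenitors also carry (0.88, 0.0233), while Acta2 differed by −0.03. Among 7 endothelial genes the defining Cdh5 was at 0 arrays, and Pecam1 and Tie1, both also found on blood progenitors, rose with the block (0.51 and 0.36, adjusted p 0.0313 and 0.0489). The other 3 measured endothelial genes did not pass, with Kdr at −0.53 and Vwf at −0.49. Tek passed the filter only through the Pcgf1 shRNA arrays (4 of 4, against 3 of 4 with the control shRNA), so no size is given for it. The summed endothelial level was 2.60 to 4.02 with the Pcgf1 shRNA, against 3.43 to 3.73 with the control shRNA. Most of it was Vwf, which alone read 1.97 to 3.86 and 3.28 to 3.59. Of the 5 bone-forming genes Ibsp was at 0 arrays and Alpl at 1, a control shRNA array. Bglap was at 1 array with the Pcgf1 shRNA and at 2 with the control shRNA. The summed level of the 5 was 0.40 to 0.58 with the Pcgf1 shRNA and 0.09 to 0.55 with the control shRNA. Runx2 alone read 0.32 to 0.54 and −0.02 to 0.29, and it rose with the block (0.35, adjusted p 0.0485). Sp7, the other one measured, was lower in 3 of 4 mice and did not pass (adjusted p 0.449 with the block). Sp7 passed the filter only through the control shRNA arrays (4 of 4, against 3 of 4), so its direction is not read as a result. With the block 2.91% of all genes were higher. None of these genes passed without the block. The part of such cells in the Col4a1 and Col4a2 values was not tested.

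CpG-rich promoters are where PRC1.1 is known to bind, so the letters CG were counted in the promoter windows of 300 bases. The motif reads the same on both strands. A window was found for 37 of the 49 genes and for 19 of the 22 measured ones. The Col4a1 window held 37 CG, and 5.58% of all 32851 windows held at least as many. The Col4a2 window held 33 (8.56% of windows), 9 of them in the stretch shared with Col4a1. Col5a1 and Col23a1, whose differences were negative, held 34 (7.73%) and 24 (20.0%), and Lama5 and Col16a1 held 24 each. Col4a6 held 3 (76.7%) and Lamb2 held 4 (68.6%). The median was 16 over the 21 windows of measured genes, against 6 over the 20 windows of genes that did not pass the filter and 7 over all windows. These are counts of letters, and no binding or methylation was measured.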

How the data were processed

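RNA of 8 cultures, 4 with a Pcgf1 shRNA and 4 with a control shRNA, was labelled with Cy3 (400 ng each) and hybridised to one-colour arrays, read with Agilent Feature Extraction 10.1 per the submitters' processing notes. The deposited scanner files hold, per the file headers, the intensity of every spot after background subtraction, unscaled between arrays. A table of log2 values that the authors deposited is centred per probe. Its differences between arrays followed the spot files (r 1, slope 1.00 over 10070 bright probes), and its column medians were 0.10, −0.05, −0.11 and −0.20 for the Pcgf1 shRNA and 0.05, 0.11, 0.10 and −0.13 for the control shRNA in mice 1 to 4. The exact shift of each array in that table stays unknown, and it was used only as an alternative.

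The log2 processed intensity was shifted to a 75th percentile of 0 on each array. Control spots and non-uniform spots were left out, and spots of a probe were averaged. Probes above background on 4 of 4 arrays in 1 or both groups were kept (22747 of 41174), a probe counting as above background where at least 0.5 of its spots were. Probes were named through RefSeq accessions (24375 matched to GRCm38.p6), and the brightest probe stood for a gene. The test was limma's (version 3.58.1, run under R 4.3.3; lmFit, eBayes, two-sided, Benjamini-Hochberg over 17301 genes), without a block and with mouse as a block. The labels' titles number the mice, and cultures of the same mouse deviated together (r 0.41 to 0.64). The normexp alternative (offset 50) used median spot signals, because the mean signal is not a column of the files. The procedure was tested on simulated data.

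The genes, the lists and the tests were chosen with earlier results of these data known, and the neutrophil and monocyte lists were added after values were seen. Every gene of the family that passed the filter is named. Some that did not pass are counted and not reported by name here. Partner genes are named if they passed with or without the block or had 1 of the 2 smallest p of their role. The other measured matrix-degrading enzymes and inhibitors are named beside them, and Bcam for its detection. The arrays filled 2 slides, each holding both groups (mice 1 and 2, mice 3 and 4). With 4 arrays a group, their number limits precision.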

Additional observations from a re-analysis of the deposited data

Results flagged for a closer look

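In 66 groups of 4 arrays, 3 values lay far from the other mice of their group by Dixon's test, which chance does in about 1 of 20 groups. All 3 were from mouse 4. Col11a2 read −0.34 in mouse 4 with the Pcgf1 shRNA, against 0.40 to 0.50 in the other mice of that group. It read −0.39 in mouse 4 with the control shRNA, against 0.21 to 0.25 in the other mice. Col7a1 read −1.09 in mouse 4 with the control shRNA, against −0.70 to −0.63 in the other mice.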

How the results depend on the processing

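In limma without a block, 0 collagen or laminin genes passed (5 unadjusted), and 0 passed under every other setting run without mouse as a block. With mouse as a replicate block 3 passed (11 unadjusted), and 0 to 2 with 1 mouse left out. Over the whole array 132 genes passed without and 921 with the block, 0 without the filter on dim probes (2199 unadjusted), and with 1 mouse left out 0 to 363 without the block (1000 unadjusted without mouse 2) and, with it, 284, 0, 306 and 145 without mice 1 to 4 (2435 unadjusted without mouse 2). Of the partner genes 2 passed without and 6 with the block, 0 without the filter (9 unadjusted), and 0 to 3 and 0 to 2 with 1 mouse left out. The Pcgf1 difference stayed at −1.36 without the filter but lost its call (adjusted p 0.104), with more genes tested, and was −1.38 to −1.34 with 1 mouse left out (adjusted p 0.0158 to 0.352; 0.0191 to 0.0896 with the block). Left-out mice with the block were added after seeing the data.

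Signs turned in 3 genes, and the cause was not tested. Col16a1 was 0.048 with normexp, 0.029 with quantile normalization and 0.014 without mouse 3 (−0.12 to 0.014 over the mice left out). Lamb2 was −0.025, −0.0050 and −0.0083 without mice 2, 3 and 4 (−0.025 to 0.076). Lamc3 was −0.0065 with normexp and −0.048, −0.018 and −0.032 without mice 1, 2 and 4 (−0.048 to 0.22). The block left these left-out values as they were. Lamc3 and Ctsk have no value where all 8 arrays must be above background. The other 19 genes kept their direction under every setting run. With normexp and quantile normalization, which changed together, 19 of the 22 collagen and laminin differences were smaller, 12 of them by more than 1.5 times or with a turned sign. Of the 10 partner genes named for a call or a small p, 10 had smaller differences, 6 of them by that much. The offset of 50 in this setting makes differences of dim probes smaller by itself.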
